A study of Mus musculus with 21 samples.

Results

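The retinoid and alcohol metabolism genes Adh6b, Adh7, Dhrs9, Rdh10, Aldh1a3, Aldh3a1, Crabp2, Rarg and Cyp26b1, were followed in keratinocytes from the tail skin of mice with basal cell carcinoma (BCC) and of tumour-free control mice (Con). They were chosen by gene name from a list drawn up when the BCC against Con changes of these libraries were already known. All 9 of the 9 listed genes were found among the 23713 genes of the deposited count table, and all 9 passed the filter on low counts in every fit. Because of that choice, the changes of the 9 genes between BCC and Con, and the differences of those changes between models, are given as a description and are not evidence that the family changed.

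The study sequenced polyA RNA in bulk from 21 libraries, 3 Con and 4 BCC for each of 3 mouse models. In SmoM2 (batch A) keratinocytes were taken on day 29 after tumours were induced, in Gnas-eKO (batch B) on day 42 and in PKI (batch C) on day 57, and the Con mice of each model belonged to the same batch and day. SmoM2 names a constitutively active Smoothened, the membrane protein that switches on Hedgehog signalling, and Gnas codes for the G protein subunit that stimulates cAMP production. The PKI construct, the promoters that drive the alleles, the Cre lines, the way tumours were induced, the strain and the age of the mice are not given in the labels, and the Con mice are described only as having no tumour. The batch, the day and the model of a library cannot be told apart, so tests of BCC against Con were made only within a model. In the table's headers library names hold different letters in SmoM2 BCC (BF) than in SmoM2 Con (TJ, as in Gnas-eKO), with no word on their meaning, and the tumour and these letters cannot be told apart in SmoM2.

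Library totals ranged from 16645858 to 22251132 counts, so that 3 counts corresponded to at most 0.19 CPM (counts scaled to a common library size). The labelled cell type was borne out by the keratinocyte markers Krt5 (7577 to 15536 CPM in Gnas-eKO BCC, the group with the lowest value) and Krt14, with none of the 5 keratinocyte markers at 0 in a whole group. Gnas was 172 to 178 CPM in Gnas-eKO Con and 50.6 to 114 CPM in Gnas-eKO BCC. Smo, whose reads do not separate the activated from the normal form, was 93.8 to 110 CPM in SmoM2 Con and 283 to 313 CPM in SmoM2 BCC. Gnas-eKO BCC replicate 2 stood apart: on the first principal component of 15640 genes (34.9% of the variance) it lay at -15.2, between the Con libraries (-51.9 to -35.5) and the other BCC libraries (29 to 45.6). The Gnas-eKO changes of the 9 genes and the counts of the pathway lists are therefore given with and without it.

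Retinol, the circulating form of vitamin A, is oxidised to retinal by alcohol dehydrogenases and by short-chain dehydrogenases, and retinal is oxidised irreversibly to retinoic acid by retinaldehyde dehydrogenases of the Aldh1a family. Retinoic acid is carried to the nucleus by Crabp2, binds retinoic acid receptors that work as heterodimers with RXR receptors on DNA, and is broken down by enzymes of the Cyp26 family. In skin the pathway is best known for its control of keratinocyte differentiation, of hair follicles and of sebaceous glands, and Rarg is the main retinoic acid receptor of the epidermis.

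Retinoic acid receptors bind pairs of the letters AGGTCA, so the 250 bases before the start site were searched for these letters on both strands where RefSeq promoter windows (GRCm38.p6) were at hand, which was the case for 4 of the 9 genes (5 windows). The windows of Dhrs9 and of Rarg held 1 match each, and those of Adh7, Cyp26b1 and the other Rarg start held 0. Of all 32851 windows of this length, 14.0% held a match. The Gli letters GACCACCCA, to which the transcription factors of the Hedgehog pathway bind, were in none of the 5 windows and in 0.225% of all windows. Their core CCACCCA, which the longer letters contain, was also in none of the 5 and in 8.11% of all. The 2 windows with a match are shown with the match in capitals (it reads TGACCT on the printed strand, 88 bases before the start in Dhrs9 and 225 bases in Rarg), and the window of Cyp26b1 because its gene is a well-known target of retinoic acid; all are written 5′ to 3′ on the strand of the gene. A match of letters is a description and not a binding site.
Dhrs9, chr2:69380212-69380461, plus strand: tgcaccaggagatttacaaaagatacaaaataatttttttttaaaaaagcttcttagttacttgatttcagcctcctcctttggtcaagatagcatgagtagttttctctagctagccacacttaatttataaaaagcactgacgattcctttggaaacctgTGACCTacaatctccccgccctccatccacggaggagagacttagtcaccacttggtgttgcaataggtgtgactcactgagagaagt
Rarg, chr15:102257523-102257772, minus strand: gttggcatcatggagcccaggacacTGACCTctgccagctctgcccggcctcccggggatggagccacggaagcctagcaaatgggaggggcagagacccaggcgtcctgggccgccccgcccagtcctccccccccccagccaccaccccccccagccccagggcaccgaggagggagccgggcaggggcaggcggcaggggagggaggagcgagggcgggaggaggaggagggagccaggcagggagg
Cyp26b1, chr6:84593811-84594060, minus strand: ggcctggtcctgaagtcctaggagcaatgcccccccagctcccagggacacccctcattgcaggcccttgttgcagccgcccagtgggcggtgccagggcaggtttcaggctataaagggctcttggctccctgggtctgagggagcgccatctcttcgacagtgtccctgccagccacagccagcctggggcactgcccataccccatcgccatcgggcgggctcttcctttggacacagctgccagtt

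Among control keratinocytes the 9 genes spanned a wide range of levels. Compared per kilobase of exon, Rarg (84.7 CPM per kb on average over the 9 Con libraries, 74.7 to 92.1) and Aldh3a1 (80.3, 57.6 to 97.8) were the most abundant, followed by Crabp2 (64.4, 54.7 to 73.2) and Adh7 (32.4, 15.0 to 45.4). Adh6b stood at 11.1 CPM per kb and Rdh10 at 5.62. The retinoic acid-degrading Cyp26b1 (2.14), Dhrs9 (1.08) and the retinaldehyde dehydrogenase Aldh1a3 (0.697) were the least abundant. The spread over the 12 BCC libraries was narrowest for Rdh10, whose highest level was 1.44 times its lowest, and for Rarg (1.56 times), and widest for Adh6b (44.2 times) and Aldh1a3 (19.3 times). The plot of the 9 genes by library shows these levels in CPM.

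**Figure D1:**
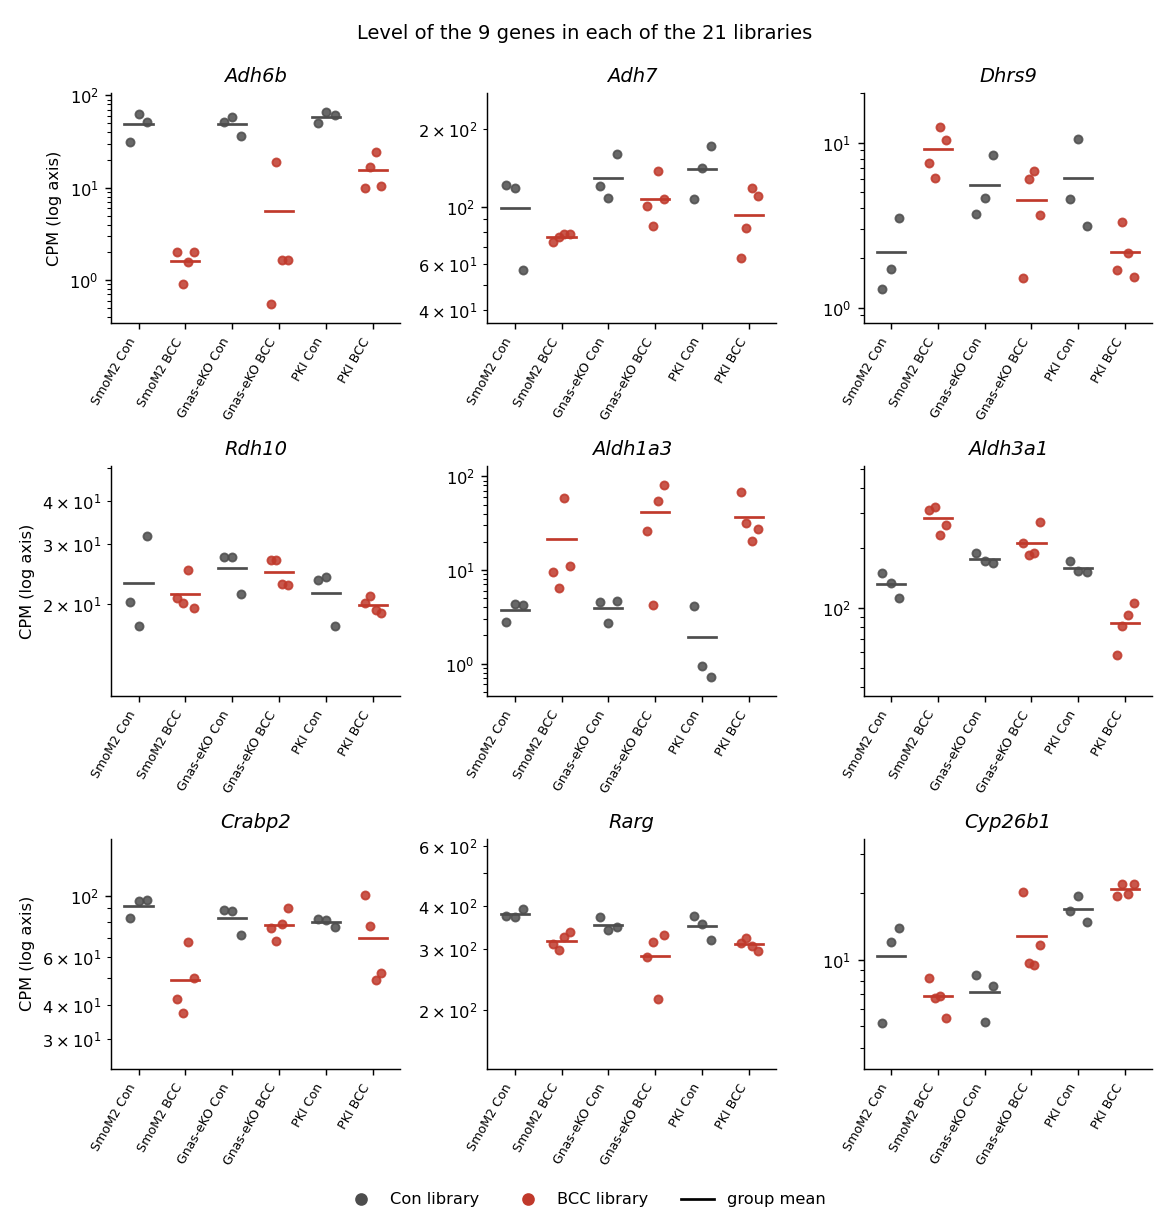
Level of each of the 9 genes in CPM (vertical log axis, a scale of its own in each panel) in the 21 libraries, by group; points are libraries, grey for Con and red for BCC, and bars are group means. Adh6b is lower in all 12 BCC libraries than in any Con library of its model, Aldh1a3 is higher in BCC with 1 Gnas-eKO library at the Con level, and Rdh10 stays between 17.3 and 31.6 CPM.

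Between BCC and Con, the edgeR fit over all genes placed 2 of the 9 genes past an adjusted p of 0.05 as higher and 3 as lower in SmoM2, none in either direction in Gnas-eKO, and 1 as higher and 3 as lower in PKI. Over all genes tested the same rule called 16.2% higher and 13.5% lower in SmoM2, 1.46% higher and 0.165% lower in Gnas-eKO, and 18.7% higher and 15.8% lower in PKI. The list was drawn up from these contrasts, so nothing is read from the counts. Without Gnas-eKO BCC replicate 2, the Gnas-eKO fit called 1 member higher (Aldh1a3) and 1 lower (Adh6b), against 7.36% and 4.43% of all genes. The other 7 members stayed under the threshold there: Adh7 was at -0.14, Dhrs9 at -0.47, Rdh10 at -0.05, Aldh3a1 at 0.36, Crabp2 at 0.00, Rarg at -0.33 and Cyp26b1 at 0.97 (lowest adjusted p 0.0991, for Cyp26b1). The Gnas-eKO shares rest on few calls, 267 of 16409 genes, and that number was 0 without Con replicate 1 or Con replicate 2 (2215 and 2085 genes with an unadjusted p under 0.05 in edgeR) and 4 without Con replicate 3. It was 38, 1910, 291 and 59 without BCC replicates 1, 2, 3 and 4. With all 7 Gnas-eKO libraries, 3212 genes had an unadjusted p under 0.05 and the other tool, DESeq2, called 1 of the 9 genes. The median log2 fold change of the 9 genes was -0.24 (SmoM2), -0.06 (Gnas-eKO) and -0.18 (PKI), beside medians over all genes of 0.00, 0.02 and 0.00.

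**Figure D2:**
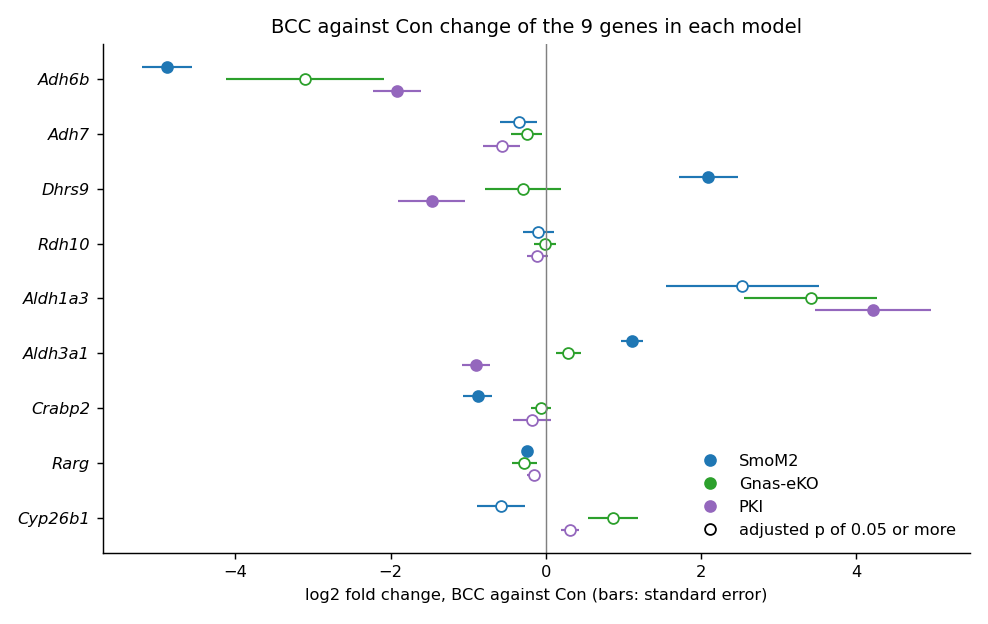
Log2 fold change of BCC against Con (horizontal axis) of the 9 genes in SmoM2 (blue), Gnas-eKO (green) and PKI (purple), from edgeR fits of 3 Con and 4 BCC libraries a model; bars are standard errors, and open circles mark an adjusted p of 0.05 or more over all genes. Dhrs9 and Aldh3a1 lie to the right of 0 in SmoM2 and to the left in PKI, while Adh6b lies to the left and Aldh1a3 to the right in all 3 models.

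Under the first step, from retinol to retinal, 4 genes were grouped by enzyme family. RNA levels do not show enzyme activity, and no activity towards retinol is assumed for Adh6b. Adh6b, one of the alcohol dehydrogenases of a gene cluster on chromosome 3 (GRCm38 chr3:138341775-138358861, plus strand), had the lowest log2 fold change of the 9 genes. In SmoM2 it was 31.5, 63.5 and 51.1 CPM in Con and 2.0, 0.915, 1.58 and 2.01 CPM in BCC, a 29.5-fold lower level (log2 fold change -4.88, SE 0.32). In PKI it was 49.8, 65.9 and 61.1 CPM in Con and 10, 16.8, 24.3 and 10.5 CPM in BCC, which is 3.78-fold lower (log2 fold change -1.92, SE 0.31). All BCC libraries of both models lay below all Con libraries, and the PKI BCC libraries kept more of the transcript than those of SmoM2.

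In Gnas-eKO, Adh6b was 51.1, 58.3 and 36.1 CPM in Con and 0.55, 18.8, 1.64 and 1.64 CPM in BCC. The 18.8 CPM belonged to BCC replicate 2, the library that stood apart, and even this library lay below every Con library. With it, the log2 fold change was -3.10 (SE 1.02, adjusted p = 0.156 in the edgeR fit), and without it -5.23 (adjusted p = 0.000442). In the joint fit of all 21 libraries the value with it was -3.11 (adjusted p = 0.00963). Of the 50-base stretches of Adh6b transcripts, 2.63% also occur in another gene, nearly all in Gm23467, a gene annotated within Adh6b on the same strand, and reads from those stretches cannot be assigned to either.

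Adh7, the alcohol dehydrogenase of epithelia with high activity towards retinol (chr3:138217760-138233382, plus strand), lies at the upstream end of the cluster. In SmoM2 it was 122, 118 and 56.9 CPM in Con and 73.5, 76.2, 78.6 and 78.7 CPM in BCC. In Gnas-eKO the values were 120, 108 and 160 CPM in Con and 101, 84.1, 138 and 107 CPM in BCC. In PKI they were 107, 142 and 172 CPM in Con and 63.2, 82.6, 118 and 110 CPM in BCC. Con and BCC overlapped in every model, and the log2 fold changes were -0.35 (SE 0.24), -0.25 (SE 0.20) and -0.57 (SE 0.24), none past the threshold in edgeR, while DESeq2 called the PKI value (-0.58, adjusted p = 0.0279). SmoM2 Con replicate 3 held the lowest Adh7 level of all 21 libraries, and without it the SmoM2 log2 fold change was -0.63 (adjusted p = 0.000143 in edgeR).

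Dhrs9, a short-chain dehydrogenase that oxidises retinol (chr2:69380445-69404533, plus strand), went in opposite directions in SmoM2 and PKI. SmoM2 libraries held 1.29, 1.72 and 3.51 CPM in Con and 7.57, 6.12, 12.5 and 10.4 CPM in BCC, 4.27-fold higher (log2 fold change 2.09, SE 0.38), and the groups did not overlap. In Gnas-eKO it was 3.7, 4.65 and 8.39 CPM in Con and 1.51, 6, 6.77 and 3.67 CPM in BCC, with overlapping groups (log2 fold change -0.30, SE 0.49). PKI libraries held 4.55, 10.6 and 3.13 CPM in Con and 1.69, 3.3, 2.14 and 1.54 CPM in BCC, a log2 fold change of -1.47 (SE 0.43). Of the PKI BCC libraries, 3 of 4 lay below every Con library. The PKI call was lost in 4 of the 7 fits with a library left out: the adjusted p was 0.138 without Con replicate 2, where the log2 fold change was -0.81. It was 0.0711, 0.0666 and 0.067 without BCC replicates 1, 3 and 4.

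Rdh10, the short-chain dehydrogenase that carries out most retinol oxidation in the embryo (chr1:16105774-16133734, plus strand), varied little. Its lowest and highest levels over the 21 libraries were 17.3 and 31.6 CPM, both in SmoM2 Con. In SmoM2 BCC it was 20.8, 20.2, 25.1 and 19.5 CPM, in Gnas-eKO BCC 26.9, 26.9, 22.9 and 22.7 CPM, and in PKI BCC 20.2, 21.2, 19.3 and 18.8 CPM. The log2 fold changes were -0.10 (SE 0.20), -0.01 (SE 0.14) and -0.11 (SE 0.13), within the spread between libraries, and the 6 group means, from 19.9 to 25.5 CPM, overlapped from each group to the next.

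The second step, the oxidation of aldehydes to acids, is represented by 2 genes. Aldh1a3, a retinaldehyde dehydrogenase that makes retinoic acid (chr7:66390890-66427517, minus strand), was scarce in Con and had the highest log2 fold changes of the 9 genes with all libraries. In SmoM2 that rank rested on BCC replicate 3, without which Aldh1a3 was at 1.26. Dhrs9 was at 1.81 or more in every SmoM2 fit with a library left out. In PKI Aldh1a3 was 4.15, 0.949 and 0.722 CPM in Con and 68.2, 32, 20.4 and 27.7 CPM in BCC, 18.5-fold higher (log2 fold change 4.21, SE 0.75). Without Con replicate 1, the highest Con library, the log2 fold change was 5.47, and with any other library left out it was 3.72 to 4.42. Every PKI BCC library held several times the highest Con level.

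In Gnas-eKO, Aldh1a3 was 4.51, 2.69 and 4.61 CPM in Con and 26, 4.18, 54.7 and 80.6 CPM in BCC. Again BCC replicate 2 was the exception, at 4.18 CPM within the Con range, and the log2 fold change was 3.41 (SE 0.86, adjusted p = 0.0882 in edgeR) with it and 3.79 (adjusted p = 0.00222) without it. In SmoM2 it was 2.8, 4.31 and 4.22 CPM in Con and 9.43, 6.41, 59.4 and 10.9 CPM in BCC. All 4 SmoM2 BCC libraries exceeded all 3 Con libraries, but replicate 3 lay far above the others: the log2 fold change was 2.53 (SE 0.99, adjusted p = 0.114) with it and 1.26 (adjusted p = 0.00684) without it. DESeq2 put Aldh1a3 past the threshold in both models with all libraries (adjusted p = 0.0148 in SmoM2 and 0.00397 in Gnas-eKO), as did the joint edgeR fit in Gnas-eKO (3.40, adjusted p = 0.0262).

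Aldh3a1, which oxidises medium-chain and aromatic aldehydes rather than retinal and is abundant in the corneal epithelium (chr11:61207537-61218421, plus strand), also went in opposite directions in SmoM2 and PKI. SmoM2 libraries held 150, 134 and 112 CPM in Con and 310, 323, 232 and 262 CPM in BCC, 2.15-fold higher (log2 fold change 1.11, SE 0.14). In Gnas-eKO it was 190, 173 and 168 CPM in Con and 211, 184, 188 and 269 CPM in BCC, with overlap (log2 fold change 0.29, SE 0.16). In PKI it was 173, 153 and 151 CPM in Con and 57.8, 81.6, 92 and 106 CPM in BCC, 1.87-fold lower (log2 fold change -0.90, SE 0.18). The groups did not overlap in SmoM2 or in PKI, and the calls in those models held with each library left out in turn.

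Of the proteins that bind retinoic acid, Crabp2 is the carrier that hands it to its receptors (chr3:87948666-87953376, plus strand). In SmoM2 Crabp2 was 83.3, 95.9 and 96.7 CPM in Con and 42, 37.4, 68 and 50.1 CPM in BCC, 1.84-fold lower without overlap (log2 fold change -0.88, SE 0.19). In Gnas-eKO it was 88.8, 88.4 and 72.2 CPM in Con and 76.1, 68.2, 79.3 and 90.1 CPM in BCC (log2 fold change -0.06, SE 0.13). PKI libraries held 82.6, 81.4 and 76.8 CPM in Con and 101, 78, 49.5 and 52.5 CPM in BCC (log2 fold change -0.18, SE 0.24). The PKI Con libraries were tightly grouped, while their BCC counterparts lay on both sides of them.

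Rarg, the receptor (chr15:102234938-102257517, minus strand), had small differences between groups. SmoM2 libraries held 374, 373 and 393 CPM in Con and 311, 299, 325 and 336 CPM in BCC, below every Con library (log2 fold change -0.24, SE 0.06). The adjusted p of that change was 0.0187 in the fit of the 7 SmoM2 libraries and 0.095 in a joint fit of all 21 libraries. In Gnas-eKO it was 371, 342 and 348 CPM in Con and 285, 315, 215 and 330 CPM in BCC (log2 fold change -0.28, SE 0.16). PKI libraries held 375, 356 and 318 CPM in Con and 312, 324, 307 and 296 CPM in BCC (log2 fold change -0.16, SE 0.08). Means were lower in BCC in each model, with an overlap of libraries in PKI alone.

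Cyp26b1, which breaks retinoic acid down (chr6:84571414-84593908, minus strand), had a higher Con level in PKI than in the other models. In SmoM2 it was 5.15, 12 and 13.9 CPM in Con and 8.3, 6.74, 6.86 and 5.44 CPM in BCC. In Gnas-eKO it was 8.56, 5.21 and 7.62 CPM in Con and 20.1, 9.69, 9.47 and 11.7 CPM in BCC, and in PKI 16.5, 19.3 and 14.8 CPM in Con and 19.4, 21.9, 19.7 and 21.9 CPM in BCC. Every BCC library exceeded every Con library in Gnas-eKO and in PKI, by a narrow margin in PKI. The log2 fold changes were -0.58 (SE 0.31), 0.86 (SE 0.32) and 0.31 (SE 0.12), none past the threshold with all libraries. Without SmoM2 Con replicate 1, the lowest library of Cyp26b1, the SmoM2 value was -0.91 (adjusted p = 0.00555 in edgeR), and without PKI Con replicate 2 the PKI value was 0.42 (adjusted p = 0.0392).

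Ranked by group mean, the order of the 6 groups was not shared by the 9 genes; it is a description, since neighbours from different models also differ in batch and day. Adh6b was highest in the 3 Con groups (58.9, 48.7 and 48.5 CPM in PKI, SmoM2 and Gnas-eKO, overlapping) and lowest in SmoM2 BCC (1.63 CPM), and a gap without overlap separated Gnas-eKO Con from PKI BCC (15.4 CPM). Aldh1a3 was highest in the 3 BCC groups (41.4, 37.1 and 21.5 CPM in Gnas-eKO, PKI and SmoM2, overlapping) and lowest in PKI Con (1.94 CPM). Aldh3a1 was highest in SmoM2 BCC (282 CPM) and lowest in PKI BCC (84.4 CPM), with PKI BCC separated from the next group, SmoM2 Con (132 CPM). Cyp26b1 was highest in PKI BCC (20.7 CPM) and PKI Con (16.9 CPM), which did not overlap. For Adh7, Crabp2, Dhrs9 and Rdh10 each group overlapped the next over the whole order.

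The difference between models was itself fitted, with 14 libraries a pair of models, and 3 of the 9 genes passed the threshold in at least 1 pair in edgeR. Between PKI and SmoM2, the edgeR interaction placed Adh6b higher in PKI (difference of log2 fold changes 2.97, SE 0.49, adjusted p = 0.0013) and Dhrs9 (-3.56, SE 0.64, adjusted p = 0.00158) and Aldh3a1 (-2.0, SE 0.25, adjusted p = 0.000148) lower. Over all genes this contrast called 12.6% higher and 12.3% lower. In the joint fit of all 21 libraries the Adh6b difference had an adjusted p of 0.0666. Without PKI Con replicate 2 the Dhrs9 difference was -2.9 (adjusted p = 0.00309). Cyp26b1 (0.89, SE 0.35, adjusted p = 0.0768) passed with DESeq2 (0.90, adjusted p = 0.0423) and without SmoM2 Con replicate 1 (1.22, adjusted p = 0.00127). Aldh1a3 (1.68, SE 1.27, adjusted p = 0.37) passed without SmoM2 BCC replicate 3 (2.95, adjusted p = 0.0271). Between PKI and Gnas-eKO, Aldh3a1 was lower in PKI (-1.19, SE 0.24, adjusted p = 0.0106), against 4.49% of all genes called higher and 4.57% lower. Without Gnas-eKO BCC replicate 2, Adh6b also passed, at 3.31 (adjusted p = 0.00231). Between Gnas-eKO and SmoM2 no member passed in edgeR, where 0.0758% of all genes were called higher and 0.0991% lower and 1499 genes had an unadjusted p under 0.05, while DESeq2 called Dhrs9 (-2.38, adjusted p = 0.0338) and Aldh3a1 (-0.81, adjusted p = 0.0409). Since each model was its own batch and day, these differences cannot be told apart from differences of batch or day. Contrasts against SmoM2 also hold the unexplained letters that differ between the names of its BCC and Con libraries, which cannot be told apart either.

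The other alcohol dehydrogenases of the Adh6b cluster were set beside it. Adh1, the classic liver enzyme that also oxidises retinol, Adh6a and Adh5 lie with Adh7 and Adh6b within chr3:138217760-138455499. Adh6a, the neighbour of Adh6b, was 2.48, 6.2 and 6.6 CPM in SmoM2 Con and 0.726, 0.0482, 0.371 and 0.504 CPM in SmoM2 BCC, and fell by 3.58 on the log2 scale (SE 0.57, adjusted p = 0.00168 in edgeR). In PKI it was 37.3, 50.7 and 70.9 CPM in Con and 2.4, 9.19, 15.5 and 7.07 CPM in BCC, and fell by 2.61 (SE 0.55, adjusted p = 0.0135). PKI Con libraries thus held far more Adh6a than the Con libraries of SmoM2 or Gnas-eKO (2.92 to 5.93 CPM), whereas the Con groups overlapped in Adh6b, and only 5 of the 2493 50-base stretches of Adh6a occur in Adh6b.

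In Gnas-eKO, Adh6a was 0.596, 1.71, 0.212 and 0.579 CPM in BCC, with a log2 fold change of -2.54 (adjusted p = 0.0691) and, without BCC replicate 2, of -3.24 (adjusted p = 0.00519). Adh1 fell by 1.98 in PKI (SE 0.30, adjusted p = 0.0032), from 154, 245 and 301 CPM in Con to 36.9, 55.7, 79.6 and 61.7 CPM in BCC. Its log2 fold changes in SmoM2 and Gnas-eKO were -0.73 and -1.0 (adjusted p = 0.0841 and 0.152); without SmoM2 BCC replicate 3 and without Gnas-eKO BCC replicate 2 they were -0.94 (adjusted p = 0.0177) and -1.24 (adjusted p = 0.0438). DESeq2 called Adh1 in both models (adjusted p = 0.00513 and 0.0437) and Adh6a in Gnas-eKO (adjusted p = 0.000904), as did the joint fit for Adh6a (adjusted p = 0.0115). Adh5, which detoxifies formaldehyde bound to glutathione, was 53.1 to 73.3 CPM in all 21 libraries and passed the threshold in no model (log2 fold changes of 0.12, -0.08 and -0.11).

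**Figure D3:**
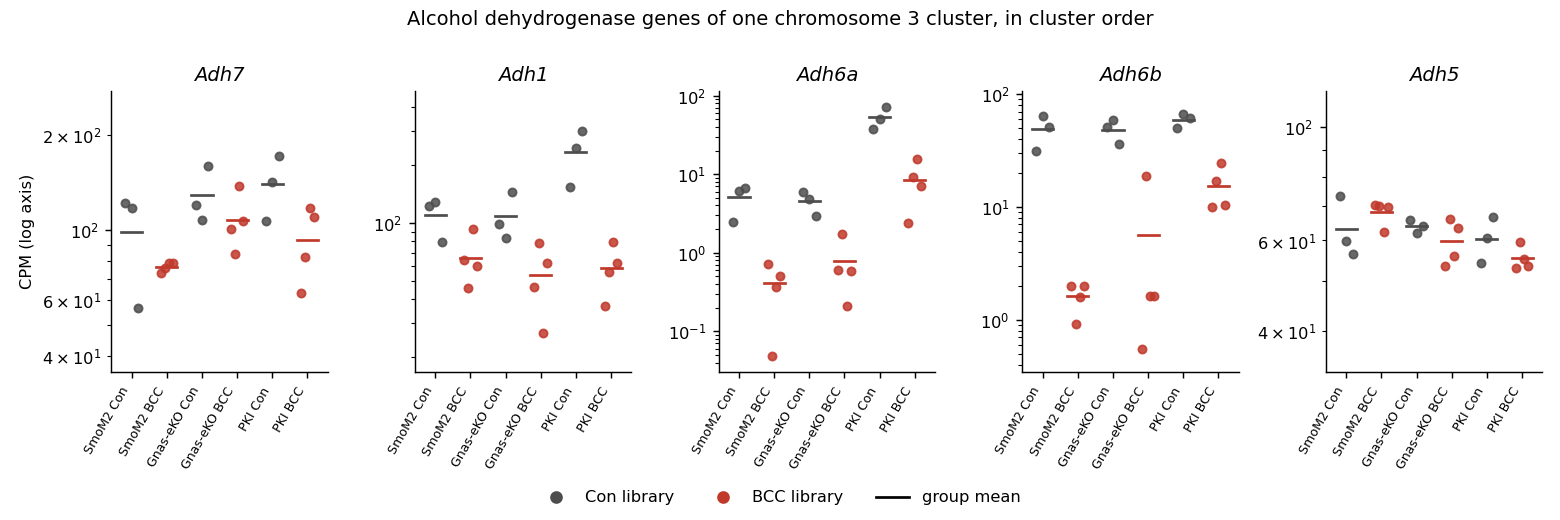
Levels in CPM (vertical log axis, a scale of its own in each panel) of 5 alcohol dehydrogenase genes of the chromosome 3 cluster, from left to right in their order along it; points are libraries, grey for Con and red for BCC, bars are group means. Adh6a and Adh6b are lower in every BCC library than in the Con libraries of its model, and Adh5 stays between 53.1 and 73.3 CPM.

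The rest of the pathway was read from 7 lists of textbook genes, grouped by role. Their genes were chosen with earlier results of these data known, so the counts below are a description. Together the lists name 64 genes, of which 58 were in the count table. In SmoM2, 6 of the 50 tested genes rose and 13 fell (median log2 fold change 0.00), in Gnas-eKO 1 of 47 rose and none fell (median -0.06), and in PKI 8 of 50 rose and 21 fell (median -0.36), beside the shares of all genes given above and medians over all genes of 0.00, 0.02 and 0.00. With a library left out, 3 to 7 rose and 8 to 10 fell in SmoM2, and 8 rose and 17 to 21 fell in PKI. Calls over all genes dropped in the same fits. In SmoM2 they went from 2646 to between 2059 and 2468 higher and from 2214 to between 1554 and 2159 lower. In PKI they went from 3063 to between 2221 and 2982 higher and from 2590 to between 1836 and 2484 lower. Without Gnas-eKO BCC replicate 2, 3 of 47 rose and 7 fell in Gnas-eKO (median 0.01): 2 and 2 of the 8 uptake and storage genes, 0 and 2 of the 4 alcohol dehydrogenases, 1 and 0 of the 6 binding proteins and receptors, 0 and 3 of the 15 aldehyde dehydrogenases, and 1 and 0 of the 6 retinoic acid-responsive genes; 1 gene that rose is in 2 lists.

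Genes of retinol uptake, carriage and storage moved both ways: 2 of 8 tested rose and 3 fell in SmoM2, 1 of 8 rose in Gnas-eKO, and 4 of 10 rose and 1 fell in PKI. Leaving out a library gave 1 to 3 that rose and 2 to 3 that fell in SmoM2, 0 to 2 each way in Gnas-eKO, and 4 that rose and 1 to 2 that fell in PKI. Scarb1, a lipoprotein receptor that also takes up carotenoids, rose in all 3 models, by log2 fold changes of 2.13 (SE 0.16) in SmoM2, 1.81 (SE 0.24) in Gnas-eKO and 2.14 (SE 0.17) in PKI. It went from 4.37 to 8.49 CPM over the 9 Con libraries to 17.0 to 34.4 CPM over the 12 BCC libraries, though in Gnas-eKO the adjusted p of 0.0202 rose to as much as 0.148 when a library was left out (4 of 7 such fits). Rbp2, a retinol carrier inside cells, rose in PKI (2.62, SE 0.37). Stra6, the membrane transporter of retinol, fell in PKI (-1.60, SE 0.38) and in SmoM2 (-1.84, SE 0.55, adjusted p = 0.0462, lost in 5 of the 7 fits with a library left out), and Rbp7 fell in SmoM2 (-2.04, SE 0.23). Lrat, the enzyme that stores retinol as esters, fell in SmoM2 (-1.26, SE 0.28) and rose in PKI (1.71, SE 0.17), and the difference between the models was 2.97 (SE 0.36, adjusted p = 9.08e-05 in edgeR).

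Of the 12 tested genes for other retinol and retinal dehydrogenases and reductases, 3 fell in SmoM2 and 7 in PKI, none rose in either model, and none passed in Gnas-eKO (0 of 12 also without BCC replicate 2). The median log2 fold change was -0.10 in SmoM2 and -0.67 in PKI. Sdr16c5, an epidermal retinol dehydrogenase, fell by 2.83 in SmoM2 (SE 0.16) and by 0.97 in PKI (SE 0.12). Rdh12 fell by 1.01 in SmoM2 (SE 0.10), and Rdh1 by 1.09 in PKI (SE 0.25). Leaving out a library brought the PKI count to between 4 and 8, and the SmoM2 counts to 0 to 1 that rose and 2 to 3 that fell. The other aldehyde dehydrogenases moved both ways in SmoM2 (3 of 16 rose, 5 fell), where leaving out a library gave 1 to 3 that rose and 2 to 4 that fell, and the joint fit 2 and 2. In PKI 1 of 15 rose and 9 fell (median -0.48), among them Aldh3b3 (-1.64, SE 0.18), Aldh1a7 (-1.70, SE 0.42) and the mitochondrial Aldh6a1 (-1.22, SE 0.12). Of the sister enzymes of Aldh1a3, Aldh1a1 was tested in no model and Aldh1a2 only in SmoM2 (0.94, SE 0.59, not past the threshold), since their counts were too low for the filter. With no filter and, where it then passed the filter, without PKI Con replicate 3, Aldh1a1 was called lower in PKI BCC (-1.84, adjusted p = 0.041, and -2.18, adjusted p = 0.0347, in edgeR), but not in the joint fit. Its PKI levels were 1.82, 0.823 and 0.482 CPM in Con and 0.102, 0.413, 0.446 and 0.164 CPM in BCC, the lowest of them under 3 counts.

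Among the other binding proteins and receptors, Rara, the other widely expressed retinoic acid receptor, rose by 1.40 in SmoM2 (SE 0.13) and by 0.87 in PKI (SE 0.13), with 1.16 in Gnas-eKO (adjusted p = 0.0617, 0.033 without BCC replicate 2, 0.014 without BCC replicate 3, 0.000978 in the joint fit and 0.000906 in DESeq2). Rara thus went from 24.4 to 37.2 CPM over the Con libraries to 38.2 to 85.9 CPM over the BCC libraries, while per kb of exon its mean Con levels (6.77 to 6.94 CPM per kb) were far below that of Rarg (84.7). Fabp5, which can carry retinoic acid to Ppard in place of Crabp2, fell by 0.95 in SmoM2 (SE 0.20) and rose by 1.84 in PKI (SE 0.31), a difference of 2.80 (SE 0.39, adjusted p = 0.000492). Of genes known to respond to retinoic acid, 1 of 7 rose and 2 fell in SmoM2, none of 6 passed in Gnas-eKO, and 2 of 8 rose and 4 fell in PKI. Leaving out a library gave 0 to 1 that rose and 1 to 2 that fell in SmoM2, and 2 that rose and 3 to 4 that fell in PKI. Those that rose included Lrat in PKI, and those that fell included Tgm2 (-1.63, SE 0.28) and Rarres1 (-1.76, SE 0.46, adjusted p = 0.0283, lost in 5 of the 7 fits with a library left out) in PKI.

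**Figure D4:**
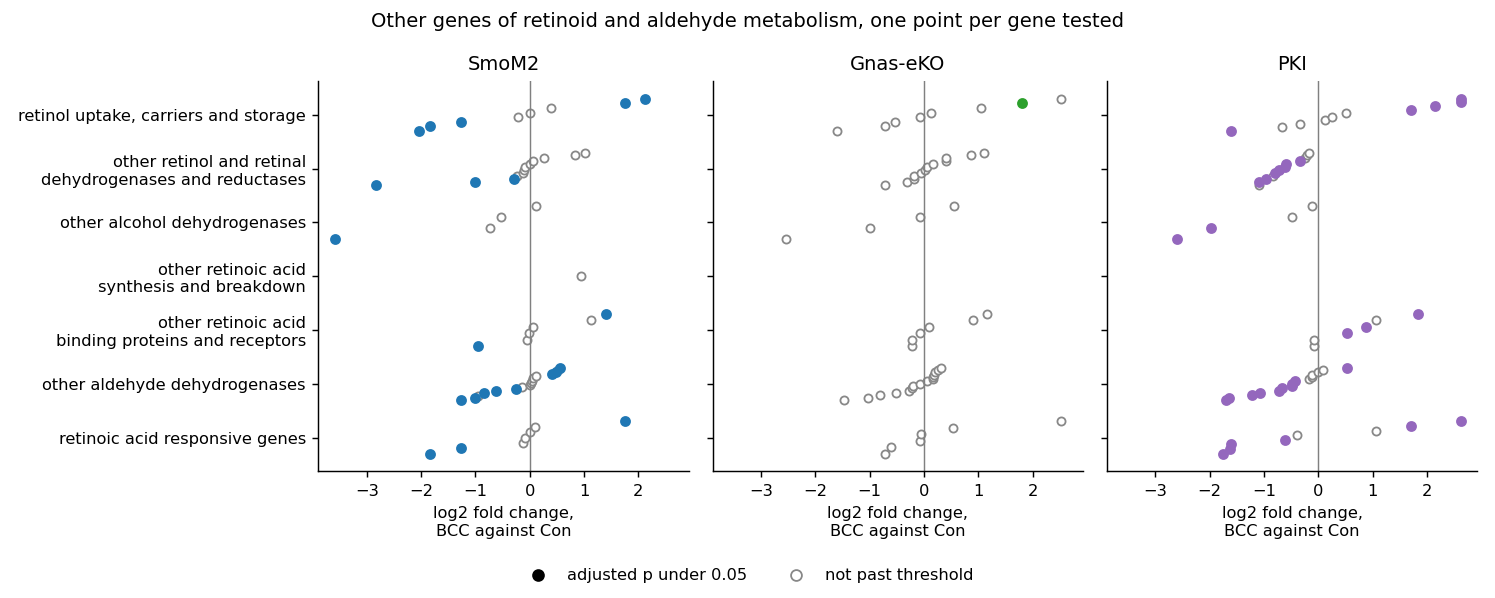
Log2 fold change of BCC against Con (horizontal axis) of the tested genes of the 7 pathway lists (rows) in each model; each point is a gene, filled where the adjusted p over all genes is under 0.05 and open where it is not, and points within a row are spread vertically, with genes of 2 lists drawn in both rows. In PKI, 21 of 50 different genes are filled to the left of 0 and 8 to the right; in Gnas-eKO 1 of 47 is filled.

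Markers of other cells moved with some of these groups, and their part in the results was not tested. In bulk RNA, fewer cells of a type and less RNA per cell cannot be told apart. In PKI, 7 of 8 leukocyte markers rose and their summed level was 45.3 to 117 CPM in Con and 254 to 475 CPM in BCC, in the same libraries in which Aldh1a3 was high and Dhrs9 and Aldh3a1 were low. In SmoM2 the leukocyte sum was 73.7 to 89.9 CPM in Con and 46.2 to 99.5 CPM in BCC. The sum of 6 fibroblast markers was 17.2 to 39.8 CPM in SmoM2 Con and 388 to 524 CPM in SmoM2 BCC, nearly all of it Dcn (363 to 500 CPM), while Col1a1 was 1.16 to 3.66 CPM there; 2 of the 6 rose. In Gnas-eKO the fibroblast sum was 16.0 to 27.4 CPM in Con and 93.3 to 578 CPM in BCC, where Aldh1a3 was high in 3 of 4 libraries; 1 of the 6 rose, and 5 of 6 without BCC replicate 2. In PKI that sum was 15.8 to 43.4 CPM in Con and 84.4 to 145 CPM in BCC, and 3 of the 6 rose. The sebaceous sum (8 markers, 1 of which rose and 1 fell) was 3102 to 5804 CPM in PKI Con and 1126 to 3456 CPM in PKI BCC, and that of the upper hair follicle (5 markers, 3 of which rose) 2896 to 4183 CPM in SmoM2 Con and 7511 to 9233 CPM in SmoM2 BCC. The upper hair follicle sum was also higher in every BCC library than in the Con libraries of Gnas-eKO (3141 to 3904 CPM in Con and 4061 to 8294 CPM in BCC; 1 rose, and 4 without BCC replicate 2) and of PKI (3349 to 3476 CPM in Con and 4396 to 7568 CPM in BCC; 2 rose, 1 fell). The suprabasal sum was 23032 to 34845 CPM in SmoM2 Con and 12521 to 27071 CPM in SmoM2 BCC (3 of 6 fell), where Crabp2 was lower. In Gnas-eKO, where Crabp2 was not called, that sum was 19296 to 27726 CPM in Con and 11679 to 23293 CPM in BCC. None of its markers passed there, and 1 fell without BCC replicate 2. In PKI, where Crabp2 was not called either, the suprabasal sum was 16488 to 31432 CPM in Con and 12178 to 42748 CPM in BCC (1 rose, 1 fell). The sum of the 5 keratinocyte markers was 26730 to 34627 CPM in SmoM2 Con and 19594 to 21344 CPM in SmoM2 BCC (1 rose, 3 fell), and 31668 to 34309 CPM in Gnas-eKO Con and 13222 to 28588 CPM in Gnas-eKO BCC (none past the threshold, and 2 fell without BCC replicate 2). In PKI the sum of the 5 melanocyte markers was 153 to 201 CPM in Con and 72.2 to 117 CPM in BCC (4 fell), and that of the 5 markers of hair follicle bulge and germ 2047 to 2457 CPM in Con and 1232 to 1448 CPM in BCC (2 rose, 2 fell). The bulge and germ sum was 1756 to 2000 CPM in SmoM2 Con and 1929 to 2120 CPM in SmoM2 BCC (3 rose, 0 fell). For Gnas-eKO it was 1553 to 2090 CPM in Con and 2081 to 3107 CPM in BCC (1 rose, and 3 without BCC replicate 2). No marker of any list was at 0 in all libraries of a group.

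The genes whose pattern over the 21 libraries was most like that of each member were found among 12029 genes, as a description only, since the libraries share groups and batches. Adh6b was most like Gpt (Pearson r = 0.969), Klc1 (0.968) and Ngfr (0.961), and Aldh1a3 like Dusp6 (0.938), Tnfaip2 (0.925) and Smpdl3b (0.925). Aldh3a1 was most like Tmem8b (0.945), Glrb (0.937) and Klf15 (0.932), and Rarg like Sh3glb1 (0.914), Keap1 (0.906) and Ube3b (0.893). Crabp2 was most like Alas1 (0.881), Apoe (0.848) and Cnfn (0.815), and Cyp26b1 like Hspa8 (0.882), Macc1 (0.844) and Hdac1 (0.842). Likeness was lower for Adh7 (Colgalt1 0.827, Gmfb 0.824, Wdr11 0.814), Rdh10 (Abcg1 0.765, Zbtb18 0.764, Syap1 0.734) and Dhrs9 (Cwc22 0.756, Guk1 0.735, Slurp2 0.730). No gene appeared in the leading 3 of more than 1 member.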

How the data were processed

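The authors deposited estimated counts per gene for the 21 libraries, without normalization (33.1% of the values are not whole), and a second table of normalized signal, which the authors made by multiplying each count by a factor per library and adding 0.001. Per the labels' protocols, the libraries were stranded polyA preparations. The submitters' processing notes name bcl2fastq 2.20, cutadapt 1.18, STAR 2.7.0f, Partek and the genome build mm10; which tool counted, and whether by strand, is not given in the sources used here. Genes of fewer than 10 summed counts are not analysed here.

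Estimated counts were rounded and fitted with edgeR 4.0.16 in R 4.3.3 (filterByExpr by group, TMM scaling, robust quasi-likelihood test, Benjamini-Hochberg adjustment over all genes tested, threshold 0.05), within each model on 7 libraries and, for differences between models, as an interaction contrast on 14. A standard error is the size of the log2 fold change over the root of its F statistic. The fits were tested on simulated counts. CPM values use the TMM-scaled sizes of all 21 libraries. CPM per kb divides by the union of exons in GENCODE M21 (GRCm38), from which gene coordinates were also taken. No 2 libraries agreed within sampling noise (smallest chi-square per degree of freedom 8.93). Each library has its own name in the headers, but the labels do not state that the replicates are separate animals, so p-values measure only the spread between these samples. Floors of 3 counts cover counting error only.

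The members, gene lists and marker lists were chosen with earlier results of these data known. Another gene that the naming rule gives is not reported here. All 9 members are named, and of each pathway list at most 3 called genes per direction and model, by size of log2 fold change; Adh5, Aldh1a1 and Aldh1a2, and genes given in models where they were not called, were named after their values were seen. The 3 genes most like each member were taken by Pearson r of log2 CPM (prior count 2), among genes tested in all models averaging 2 or more in log2 CPM. Alternatives were DESeq2 size factors, the DESeq2 1.42.0 Wald test, no filter, a joint fit of all 21 libraries, a replicate block, each library left out in turn and, for levels, the authors' normalized signal.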

Additional observations from a re-analysis of the deposited data

Results flagged for a closer look

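Of 27 groups of libraries tested for a far-off value (9 genes; only the 3 BCC groups have 4 libraries), 2 held one by Dixon's criterion at 95%, and chance flags about 1 in 20. The highest Adh6b level in Gnas-eKO BCC, 18.8 CPM in replicate 2, lay far from the other 3 libraries (0.55, 1.64 and 1.64 CPM). The highest Aldh1a3 level in SmoM2 BCC, 59.4 CPM in replicate 3, lay far from the other 3 (9.43, 6.41 and 10.9 CPM).

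Of 27 differences between the BCC effects of a pair of models, 4 passed the interaction test in edgeR. Between PKI and SmoM2 they were Adh6b (2.97), Aldh3a1 (-2.0) and Dhrs9 (-3.56), and between PKI and Gnas-eKO Aldh3a1 (-1.19). Adh6b was lower in BCC than in Con in both models of its pair, in 4 of 4 BCC libraries of each, and by less in PKI. Dhrs9 was higher in 4 of 4 SmoM2 BCC libraries and lower in 3 of 4 PKI BCC libraries than every Con library of the model.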

How the results depend on the processing

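Across the other size factors, the lack of a filter and the joint fit, most calls of the 9 genes kept their side of the threshold; those that changed are given in the Results or below, and their cause was not tested. In Gnas-eKO the count of called members was 0, but 1 with DESeq2, 2 in the joint fit of all 21 libraries, and 0 to 2 with a library left out (2 without BCC replicate 2). Between PKI and Gnas-eKO it was 1, and 1 to 2 with a library left out. Between Gnas-eKO and SmoM2 it was 0, and 2 with DESeq2. Over all genes the Gnas-eKO fit called 267, against 1535 with DESeq2, 2644 in the joint fit, 135 with the replicate block and 0 to 1910 with a library left out, and 30 genes differed between Gnas-eKO and SmoM2, against 212 with DESeq2, 66 in the joint fit and 14 to 79 with a library left out. Between PKI and Gnas-eKO, 1564 genes were called, against 2389 with DESeq2, 925 with the replicate block and 673 to 2512 with a library left out.

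Libraries share only a replicate number: the correlations of same-numbered Con and BCC deviations were -0.09, -0.13 and -0.13 (SmoM2), 0.04, 0.18 and 0.10 (Gnas-eKO), and 0.28, -0.07 and 0.19 (PKI). With a replicate block the count of called members was 5 (SmoM2), 0 (Gnas-eKO) and 5 (PKI), against 5, 0 and 4 without it, and in PKI Adh7 passed at -0.68 (adjusted p = 0.000557). Over all genes the block called 3428 of 16370 in SmoM2 (4860 without it), 135 of 16409 in Gnas-eKO (267 without it) and 5988 of 16397 in PKI (5653 without it). Of the other pathway genes named, the block left Rbp2 (adjusted p = 0.0581), Stra6 (0.111) and Rarres1 in PKI, and Fabp5 (0.0617) and Stra6 (0.227) in SmoM2, uncalled; it called 0 aldehyde dehydrogenases higher and 3 lower in SmoM2, 2 and 3 of the other retinol and retinal dehydrogenases there, and 0 and 1 (SmoM2) and 1 and 2 (PKI) of the responsive genes. Changes of sign were all of values not past the threshold. With the block, Rdh10 in Gnas-eKO was 0.04 and the difference of Crabp2 between PKI and Gnas-eKO 0.02.

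With a library left out, Rdh10 ranged from -0.27 to 0.20 in SmoM2 and from -0.13 to 0.04 in Gnas-eKO, where Crabp2 ranged from -0.16 to 0.00 and Dhrs9 from -0.57 to 0.11. Differences between PKI and SmoM2 ranged from -0.40 to 0.06 for Adh7 and from -0.31 to 0.15 for Rdh10; between PKI and Gnas-eKO from -0.34 to 0.03 for Crabp2 and from -0.23 to 0.02 for Rdh10; and between Gnas-eKO and SmoM2 from -0.35 to 2.18 for Adh6b, from -0.07 to 0.39 for Adh7, from -0.21 to 0.25 for Rdh10 and from -0.11 to 0.08 for Rarg. The authors' normalized signal was 0.991 to 1.02 times the CPM over the 189 values of the 9 genes. At 3 counts per library (at most 0.19 CPM), depth limits Adh6a in SmoM2 BCC replicate 2 (1 count) and Aldh1a1 in PKI BCC (lowest 0.102 CPM) but no member.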
